A study of Danio rerio with 8 samples.

Results

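The genes described here encode the subunits of the receptors for glutamate, GABA and glycine. They were taken by a rule on gene symbols, as all rows whose symbol begins with gria, grin1, grin2, grin3, grik, grm and a digit, gabra, gabrb, gabrg, gabrd, gabrr, gabbr, glra or glrb. The rule itself uses no measured values, but it was chosen with earlier results of these data known. The rule found 63 genes of the 20409 in the table, and all 63 passed the filter on low values (at least 1 CPM, which is 0 on the log2 scale, in at least 4 of 8 libraries). They fell into 14 classes: 8 AMPA, 10 NMDA and 5 kainate receptor genes, 4, 3 and 5 genes of metabotropic glutamate (mGlu) receptors of groups I, II and III, 7 alpha, 4 beta, 3 gamma, 1 delta and 3 rho subunit genes of GABA-A receptors, 3 GABA-B receptor genes, and 5 alpha and 2 beta subunit genes of glycine receptors.

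Gene expression was measured by RNA-seq in whole zebrafish larvae 4 days after fertilization, with 30 larvae pooled per library. Mutant larvae were homozygous for smh (-/-), a mutation of the cilia gene ccdc103, and were picked by a tail that curls down. Control libraries held wild-type (wt) together with heterozygous (+/-) siblings, so that part of the control larvae carried 1 mutant allele. Each of 4 clutches gave 1 mutant and 1 control library, with no treatment in either genotype, and the study asked how paralysed cilia affect gene expression.

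Glutamate is the main excitatory transmitter of the vertebrate brain. AMPA and kainate receptors carry fast excitatory current, NMDA receptors detect coincident activity and admit calcium, and mGlu receptors act through G proteins. GABA and glycine inhibit: GABA-A and glycine receptors are chloride channels built of several subunits, and GABA-B receptors are G protein-coupled pairs. In larval zebrafish, glycine receptors of the hindbrain and spinal cord shape swimming, and mGlu6 and rho receptors serve bipolar cells of the retina.

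Levels are given as log2 CPM (counts scaled to the same library total), a unit inferred from the authors' normalized values, whose distribution is the same in every library. The libraries summed to 997999 to 998006 CPM, and their sequencing depth is unknown. ccdc103 did not separate the genotypes, at 0.33 to 0.997 log2 CPM in mutants and 0.395 to 1.004 log2 CPM in controls (two-sided exact permutation p = 0.486; 4 against 4 libraries cannot go below 0.0286), so its level does not check the labels. Neurons were well represented: elavl3, an RNA-binding protein gene of neurons, was at 9.61 to 9.92 log2 CPM in mutants and 9.23 to 9.81 log2 CPM in controls. In whole larvae a change in the number of neurons and a change of RNA per neuron cannot be told apart. CPM is not scaled to transcript length, so levels are compared between libraries and not between genes.

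No receptor gene passed the test between mutants and siblings. The difference of all 63 genes lay between -0.26 (glra4a, a glycine receptor subunit gene) and 0.32 log2 units (gabrg1, a GABA-A receptor subunit gene), with 33 genes above 0 and 30 below. Their median was 0.0077 log2 units, and that of all 20154 genes tested was 0.0035. 0 of 63 passed at an adjusted p under 0.05 in limma, a linear model fitted across all genes, where 0.0744% of all genes tested did, and 0 of 63 had an unadjusted p under 0.05 (3.41% of all genes). With clutch as a block, 0 of 63 again passed, against 2.34% of all genes, and 4 of 63, among them gabrg1, glra4a and glrba, had an unadjusted p under 0.05 (13.5% of all genes). In the authors' deposited table, 0 of 63 had an adjusted p under 0.05, against 0.118% of all genes, and the smallest unadjusted p was 0.0586, for gabrg1.

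The intervals bound how far each gene could have moved. A 95% confidence interval inside 0.5 log2 units on either side of 0, which is a change of under 1.41-fold, was found for 32 of 63 genes (65.3% of all genes tested), and 61 of 63 lay inside 1 log2 unit, or 2-fold (95.8% of all genes). One of the other two was gabra4 (-0.81 to 1.099). With clutch as a block the intervals were narrower, with a median half-width of 0.197 against 0.41 log2 units, and 52 of 63 lay inside 0.5 log2 units (81.6% of all genes). Unless the block is named, the intervals given below are those of the fit without it. They include the spread between clutches and leave out the pairing of clutch mates. For many genes the blocked interval was much narrower, as for grin1a (-0.104 to 0.138), glra1 (-0.27 to 0.056), gabbr1b (-0.22 to 0.28) and grm2a (-0.36 to 0.019). That of gabrb1 was not, at -0.354 to 0.579. A direction shared by 4 of 4 clutches was seen in 10 of 63 genes (21.9% of all genes tested), with 4 higher in mutants (grm6a and gabrg1 among them) and 6 lower (gria2b, grin3bb, grm2a, grm8a, glra4a and glrba). For 0 of 63 genes did the values of the 2 genotypes lie apart without overlap (2.92% of all genes).

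**Figure D1:**
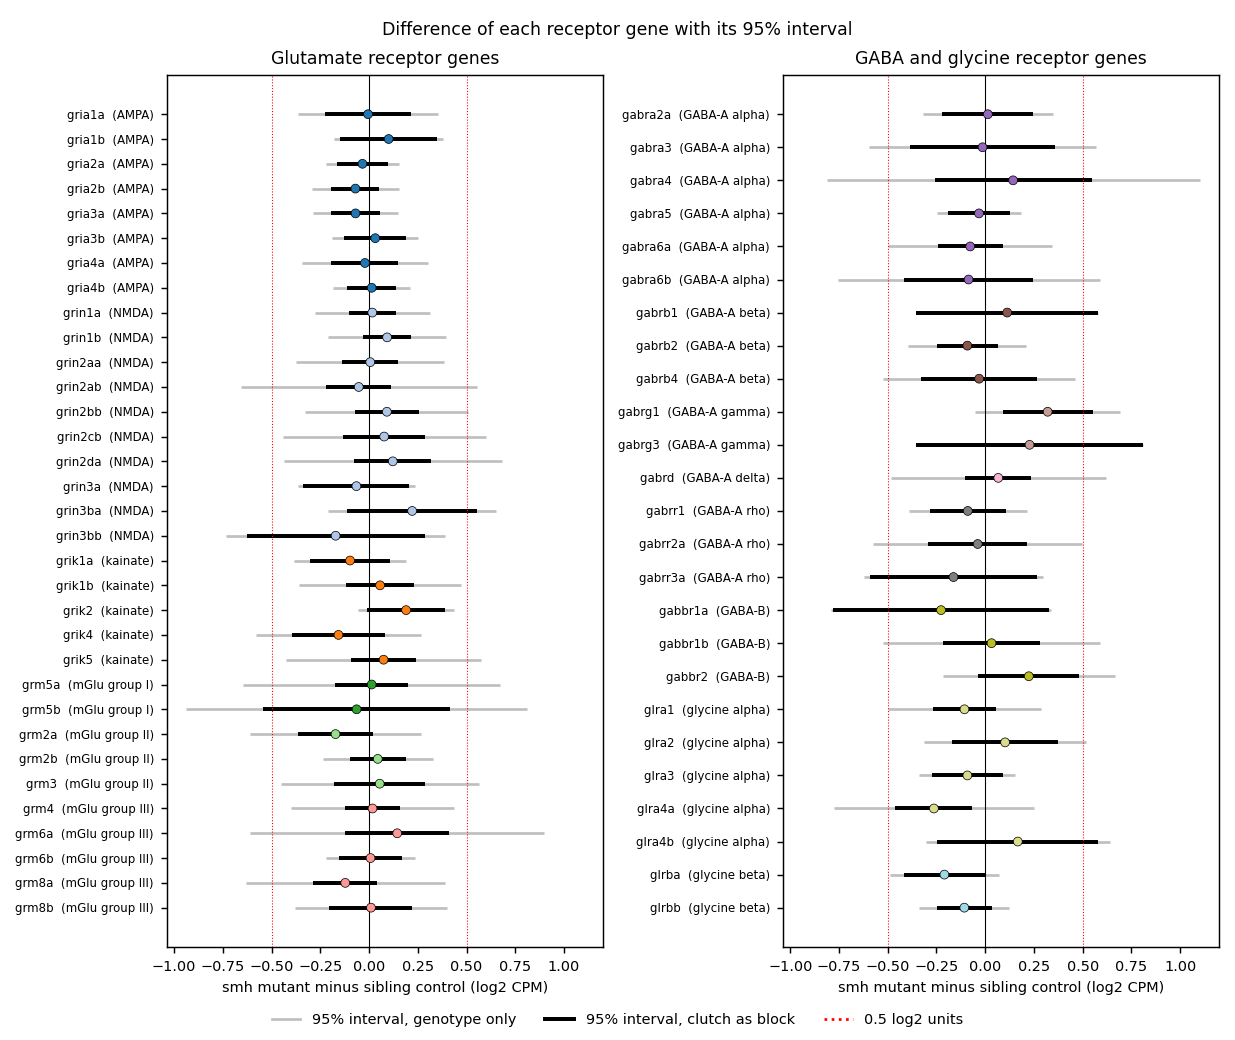
Difference between smh mutants and sibling controls (log2 CPM, horizontal axis) for 58 receptor genes, with its 95% confidence interval from limma without clutch (grey) and with clutch as a block (black); dotted lines mark 0.5 log2 units. Every grey interval holds 0, and that of gabra4 is the widest shown.

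AMPA receptor genes were bounded tightly without the block, with a median half-width of 0.22 log2 units against 0.41 over all 63. With clutch as a block the gap was smaller, at 0.144 against 0.197 log2 units. All 8 lay inside 0.5 log2 units, with differences of -0.0699 to 0.101 log2 units and a class median of -0.013. Within clutches 1 to 4 the class median was -0.025, -0.0010, -0.015 and -0.078 log2 units, and the widest differences of a gene in 1 clutch were 0.35 (gria1b, clutch 4) and -0.35 (gria1a, clutch 3). gria3a (gene ID 170452), the AMPA gene with the highest CPM, had 6.54, 6.702, 6.74 and 6.66 log2 CPM in the mutants of clutches 1 to 4, against 6.52, 6.78, 6.77 and 6.86 log2 CPM in their siblings. Its genotypes overlapped, clutch 1 was lowest in both, and the difference was -0.069 ± 0.099 log2 units (SE, 95% interval -0.29 to 0.15). gria1b (gene ID 403044), the AMPA gene with the widest difference, had 2.45, 2.69, 2.68 and 2.74 log2 CPM in the mutants of clutches 1 to 4, against 2.58, 2.69, 2.498 and 2.39 log2 CPM in their siblings. Mutants were lower in clutch 1 and higher in the rest, and the difference of 0.101 log2 units had an interval of -0.18 to 0.38. gria2a and gria2b, whose product makes AMPA receptors nearly impermeable to calcium in mammals, differed by -0.034 and -0.0699 log2 units, gria3b by 0.032, gria4a by -0.021, gria4b by 0.014 and gria1a by -0.0051.

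NMDA receptor genes had a median difference of 0.047 log2 units. grin1a and grin1b encode the subunit that every NMDA receptor contains. grin1b (gene ID 100005675) had 7.68, 8.13, 8.08 and 7.93 log2 CPM in the mutants of clutches 1 to 4, against 7.496, 7.96, 8.02 and 7.97 log2 CPM in their siblings. Both libraries of clutch 1 were the lowest of their genotype, and the genotypes overlapped (difference 0.093 ± 0.14 log2 units, SE, 95% interval -0.21 to 0.396, or -0.0296 to 0.22 with clutch as a block). Its copy grin1a differed by 0.017 log2 units (-0.28 to 0.31). The grin2 genes, whose subunits bind glutamate, ranged from -0.053 for grin2ab to 0.12 for grin2da, with 0.0063 for grin2aa, 0.092 for grin2bb and 0.078 for grin2cb. Of the 63 genes, grin2aa alone lies on chromosome 3, which also holds ccdc103 (chromosomes from RefSeq, GRCz12tu). RefSeq also places grin2ba and grin2ca there, NMDA receptor genes that the symbol rule leaves out and that are described below.

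The grin3 genes, whose subunits bind glycine, had differences of both signs. grin3ba (gene ID 566411) had 2.06, 1.95, 2.07 and 2.57 log2 CPM in the mutants of clutches 1 to 4, against 1.65, 2.36, 1.73 and 2.03 log2 CPM in their siblings. Mutants were higher in 3 clutches and lower in clutch 2, with a difference of 0.22 log2 units (-0.21 to 0.65). grin3bb differed by -0.17 and grin3a by -0.065 log2 units. Over all 10 NMDA genes the class median within clutches 1 to 4 was 0.17, 0.0020, -0.053 and -0.0397 log2 units, and 4 of 10 intervals lay inside 0.5 log2 units, or 8 of 10 with clutch as a block.

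Of the kainate receptor genes, grik1a, grik1b and grik2 encode subunits that form channels alone, and grik4 and grik5 encode partners that need them. grik2 (gene ID 556013) had the widest difference, with 4.002, 3.92, 3.84 and 4.103 log2 CPM in the mutants of clutches 1 to 4, against 3.66, 3.78, 3.97 and 3.69 log2 CPM in their siblings. Mutants were higher in clutches 1, 2 and 4 and lower in clutch 3, and the difference of 0.19 ± 0.11 log2 units (SE, 95% interval -0.056 to 0.44) did not pass. grik5 (gene ID 798791) had 4.21, 4.86, 4.604 and 4.87 log2 CPM in the mutants of clutches 1 to 4, against 3.88, 4.93, 4.69 and 4.75 log2 CPM in their siblings. Clutch 1 was lowest in both genotypes, and the difference was 0.075 log2 units (-0.43 to 0.58, or -0.093 to 0.24 with clutch as a block). The other kainate genes differed by -0.097 (grik1a), 0.057 (grik1b) and -0.16 log2 units (grik4), and the class median was 0.12, 0.057, -0.13 and -0.0089 log2 units in clutches 1 to 4.

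mGlu receptor genes had a median difference of 0.012 log2 units over 12 genes, and 0.0296, 0.027, 0.0076 and -0.055 within clutches 1 to 4. Group I receptors couple to phospholipase C. Of these genes, grm5a and grm5b differed by 0.013 and -0.064 log2 units.

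Group II and III mGlu receptors lower cyclic AMP, often at presynaptic terminals. grm2b (gene ID 564461) had 4.63, 5.03, 4.98 and 5.03 log2 CPM in the mutants of clutches 1 to 4, against 4.62, 5.09, 4.91 and 4.86 log2 CPM in their siblings. Values of clutch 1 were lowest in both genotypes, and the difference was 0.045 log2 units (-0.24 to 0.33). Its copy grm2a (gene ID 336153) had 2.95, 3.46, 3.44 and 3.62 log2 CPM in the mutants of clutches 1 to 4, against 2.97, 3.69, 3.74 and 3.75 log2 CPM in their siblings. grm2a was lower in mutants in 4 of 4 clutches, by little in clutch 1, and its difference of -0.17 ± 0.199 log2 units (SE, -0.61 to 0.26) did not pass (blocked limma adjusted p = 0.43). grm3 differed by 0.055 log2 units.

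In group III, grm4 (gene ID 567181) had 4.396, 5.097, 5.05 and 5.08 log2 CPM in the mutants of clutches 1 to 4, against 4.43, 5.12, 5.05 and 4.96 log2 CPM in their siblings. Here again both libraries of clutch 1 stood below the rest, and the genotypes overlapped. The difference was 0.018 log2 units (-0.399 to 0.43, or -0.12 to 0.16 with clutch as a block). grm6a (gene ID 568484) and grm6b encode mGlu6, the glutamate sensor of ON bipolar cells in the retina. grm6a had 1.51, 2.68, 2.39 and 2.51 log2 CPM in the mutants of clutches 1 to 4, against 1.17, 2.67, 2.28 and 2.39 log2 CPM in their siblings. It was higher in mutants in 4 of 4 clutches, mostly in clutch 1, with a difference of 0.14 log2 units. The interval of grm6a was -0.61 to 0.899, or -0.12 to 0.41 with clutch as a block. grm6b differed by 0.0077 log2 units (-0.22 to 0.24). grm8a and grm8b differed by -0.12 and 0.0099 log2 units.

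GABA-A receptor genes had a median difference of -0.022 log2 units over 18 genes, between -0.16 and 0.32. Alpha and beta subunits together form the GABA binding site. Alpha genes differed by 0.014 (gabra2a), -0.014 (gabra3), 0.14 (gabra4), -0.032 (gabra5), -0.077 (gabra6a) and -0.085 log2 units (gabra6b).

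Among beta genes, gabrb1 (gene ID 100331377) had 0.48, 0.73, 0.98 and 1.198 log2 CPM in the mutants of clutches 1 to 4, against 0.97, 0.65, 0.77 and 0.55 log2 CPM in their siblings. The difference of gabrb1 was 0.11 log2 units (-0.35 to 0.58), and its mutants were lower in clutch 1 and higher in the rest. gabrb2 and gabrb4 differed by -0.092 and -0.031 log2 units.

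The 3 gamma genes, whose subunits most synaptic GABA-A receptors of mammals hold, were all above 0, and gabrg1 had the largest difference of the 63 genes. gabrg1 (gene ID 556202) had 2.54, 3.03, 2.82 and 3.05 log2 CPM in the mutants of clutches 1 to 4, against 2.15, 2.73, 2.68 and 2.603 log2 CPM in their siblings. It averaged 2.86 ± 0.24 log2 CPM in mutants and 2.54 ± 0.27 log2 CPM in controls (SD, n = 4 each), and was higher in mutants in 4 of 4 clutches with overlap between the groups. The difference of 0.32 ± 0.17 log2 units (SE, 95% interval -0.051 to 0.69, and 0.0898 to 0.55 with clutch as a block) did not pass in limma without the block (adjusted p = 1) or with it (adjusted p = 0.172).

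gabrg3, near the filter on low values, differed by 0.23 log2 units and was higher in the mutants of clutches 2 and 3 alone. The median of the gamma genes was above 0 in 4 of 4 clutches.

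gabrd (gene ID 571422), of the delta subunit that mammalian receptors outside synapses hold, had 3.88, 4.54, 4.65 and 4.61 log2 CPM in the mutants of clutches 1 to 4, against 3.62, 4.71, 4.51 and 4.58 log2 CPM in their siblings. Clutch 1 was lowest in both genotypes, and the difference was 0.067 log2 units (-0.48 to 0.62, or -0.103 to 0.24 with clutch as a block). The rho genes, known from retinal bipolar cells, were each slightly below 0. gabrr1 (gene ID 568984) had 3.86, 4.25, 4.26 and 4.07 log2 CPM in the mutants of clutches 1 to 4, against 4.03, 4.402, 3.98 and 4.39 log2 CPM in their siblings. It was lower in the mutants of 3 clutches and higher in that of clutch 3 (-0.089 log2 units, -0.39 to 0.21). gabrr3a (gene ID 570876) had 1.001, 1.56, 1.105 and 0.95 log2 CPM in the mutants of clutches 1 to 4, against 1.65, 1.06, 1.09 and 1.48 log2 CPM in their siblings. The genotypes overlapped (-0.16 log2 units, -0.62 to 0.296), and gabrr2a differed by -0.039.

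The rho class median was -0.17, -0.15, 0.28 and -0.32 log2 units in clutches 1 to 4. Beside these, of 25 other genes in a list of retinal bipolar, horizontal and ganglion cells, 21 were below 0 with a median of -0.12 log2 units. The median of this list was -0.096, -0.099, -0.052 and -0.23 log2 units in clutches 1 to 4. The unadjusted limma p was under 0.05 for 12 of the 25 with clutch as a block (13.5% of all genes) and for 3 of the 25 otherwise (3.41%). 0 passed without the block and 1 fell with it, samsn1a (-0.298 log2 units, blocked limma adjusted p = 0.0241). The mGlu6 genes grm6a and grm6b lay above 0, at 0.14 and 0.0077 log2 units. The part of retinal cells in the rho and mGlu6 values was not tested.

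GABA-B receptors need one subunit of each kind, GABA-B1 to bind GABA and GABA-B2 to signal. gabbr1b (gene ID 558708) had 4.16, 5.29, 4.72 and 4.86 log2 CPM in the mutants of clutches 1 to 4, against 4.16, 4.77, 4.82 and 5.14 log2 CPM in their siblings. The mutant was higher in clutch 2 and lower in the others, by little in clutch 1 (0.032 log2 units, -0.52 to 0.59). gabbr1a (gene ID 373873) had 1.36, 1.63, 0.47 and 1.13 log2 CPM in the mutants of clutches 1 to 4, against 1.09, 1.19, 1.78 and 1.42 log2 CPM in their siblings. The mutant of clutch 3 was the lowest of the 8 libraries, and the difference was -0.23 log2 units (-0.79 to 0.34). gabbr2 differed by 0.22 log2 units, and 0 of 3 GABA-B intervals lay inside 0.5 log2 units without the block and 2 of 3 with it.

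Glycine receptor genes stood below 0 in 5 of 7 cases, with a median of -0.11 log2 units. Within clutches 1 to 4 the median was -0.23, -0.24, 0.063 and 0.0071 log2 units, and 1, 0, 4 and 4 of the 7 genes were above 0. glra1 (gene ID 30676), the alpha subunit gene with the highest CPM, had 3.78, 4.27, 4.34 and 4.498 log2 CPM in the mutants of clutches 1 to 4, against 3.88, 4.51, 4.47 and 4.45 log2 CPM in their siblings. It was lower in the mutants of clutches 1, 2 and 3, and the genotypes overlapped (-0.11 log2 units, -0.499 to 0.29). glra4a (gene ID 83413) had 3.56, 2.83, 3.18 and 3.75 log2 CPM in the mutants of clutches 1 to 4, against 4.01, 3.19, 3.31 and 3.86 log2 CPM in their siblings. It was lower in mutants in 4 of 4 clutches, and the genotypes overlapped. The 95% interval of its difference, -0.26 ± 0.23 log2 units (SE), was -0.78 to 0.25, or -0.46 to -0.066 with clutch as a block. Its blocked limma adjusted p was 0.197.

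The beta subunit ties glycine receptors to the scaffold protein gephyrin. glrba (gene ID 83412) had 2.86, 2.899, 3.07 and 3.198 log2 CPM in the mutants of clutches 1 to 4, against 3.27, 3.02, 3.21 and 3.36 log2 CPM in their siblings. It was lower in mutants in 4 of 4 clutches with overlapping groups (-0.21 ± 0.13 log2 units, SE, 95% interval -0.49 to 0.071, and -0.42 to -0.0010 with the block). Its blocked limma adjusted p was 0.366. glrbb (gene ID 445193), the gene mutated in the zebrafish motility mutant bandoneon, had 6.301, 6.003, 6.36 and 6.31 log2 CPM in the mutants of clutches 1 to 4, against 6.52, 6.29, 6.29 and 6.302 log2 CPM in their siblings. Mutants were lower in clutches 1 and 2 and slightly higher in the rest (-0.11 log2 units, -0.34 to 0.12). glra2, glra3 and glra4b differed by 0.102, -0.091 and 0.17 log2 units.

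**Figure D2:**
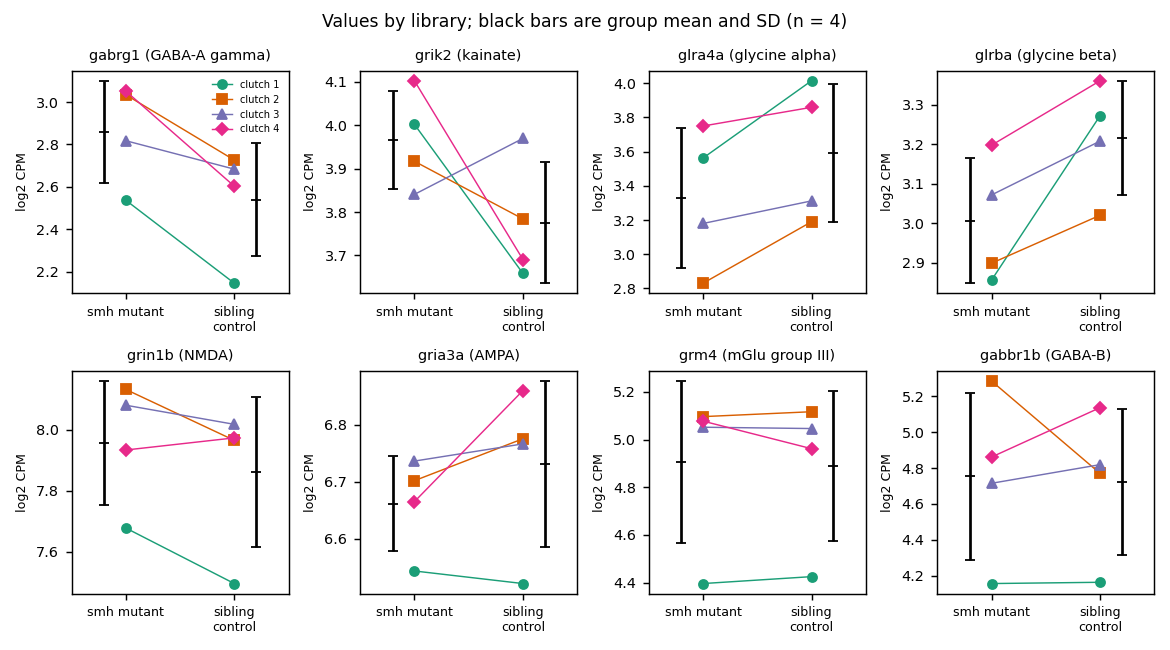
Values of 8 receptor genes in log2 CPM (vertical axes differ and do not start at 0) in smh mutants (left) and sibling controls (right), with lines joining libraries of a clutch and black bars for mean and SD (n = 4). gabrg1 was higher in mutants in 4 of 4 clutches and glra4a and glrba lower, while grin1b, grm4 and gabbr1b were lowest in clutch 1 in both genotypes.

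Set beside each other, the receptor classes had medians near 0. The class medians ran from -0.16 (glycine beta, 2 genes) to 0.23 log2 units (GABA-A gamma, 3 genes). Of the 14 classes, the gamma class was above 0 in 4 of 4 clutches, and the AMPA and glycine beta classes were below 0 in 4 of 4. The AMPA median was only -0.0010 log2 units in clutch 2, and with libraries or clutches left out it ran from -0.039 to 0.0301. Of single genes, 21.9% of all tested shared a direction in 4 of 4 clutches, and no such share was counted for medians of gene sets. The widest class medians of a single clutch were 0.52 (GABA-B, clutch 2) and -0.37 log2 units (mGlu group I, clutch 4), and over all 63 genes the clutch medians were 0.044, -0.0067, 0.00051 and -0.051 log2 units. No test was made of a class, so these are descriptions of these libraries.

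**Figure D3:**
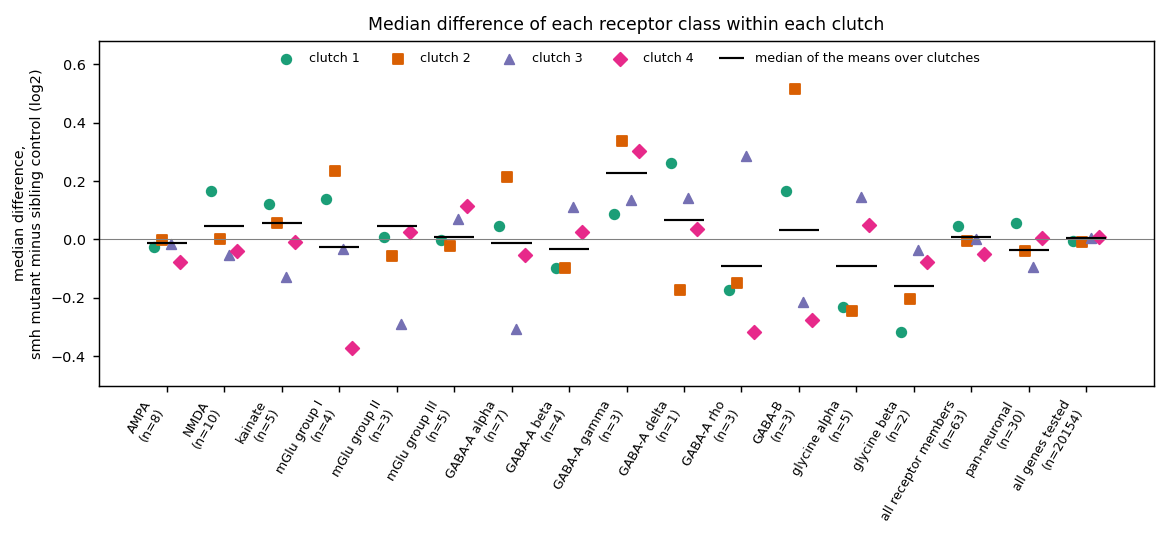
Median over the genes of a class of the difference between smh mutant and sibling control (log2, vertical axis) in each clutch (points) and of the mean differences over clutches (black bars), for 14 receptor classes, all receptor genes, 30 pan-neuronal genes and all genes tested. The median over all receptor genes stayed between -0.051 and 0.044 in each clutch, while classes of few genes spread more widely.

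Excitatory and inhibitory ionotropic receptors were also set against each other. The median of the 23 ionotropic glutamate genes minus that of the 18 GABA-A genes was 0.076, -0.019, -0.12 and -0.0049 log2 units in clutches 1 to 4, which is -0.017 ± 0.0801 (SD, n = 4 clutches). Minus the median of the 7 glycine receptor genes it was 0.34, 0.25, -0.11 and -0.058 log2 units (0.105 ± 0.23), so the glycine genes were relatively low in the mutants of clutches 1 and 2 and not in those of clutches 3 and 4. The summed CPM of ionotropic glutamate receptor genes was divided by that of GABA-A and glycine receptor genes. This ratio came to 2.6, 2.77, 2.71 and 2.53 in the mutants of clutches 1 to 4, against 2.27, 2.55, 2.83 and 2.63 in their siblings. Genes with high CPM weigh most in it: NMDA genes held a mean of 554 of 1029 CPM of the glutamate sum in mutants and 536 of 1021 CPM in siblings. The ratio was higher in mutants in clutches 1 and 2 and lower in clutches 3 and 4.

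All receptor genes together summed to 1403, 1733, 1701 and 1704 CPM in the mutants of clutches 1 to 4, against 1376, 1705, 1702 and 1751 CPM in their siblings. Clutch mates stood close to each other, and both libraries of clutch 1 stood apart from the other 6. The log2 ratio of the sums was between -0.039 and 0.029 in the 4 clutches.

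Many receptor genes differed between clutches. The clutch means had a median SD of 0.24 log2 units over the 63 genes, and of 0.18 over all genes tested. In the fit with clutch as a term, 39 of 63 genes differed between clutches (limma F test, adjusted p under 0.05), where 38.6% of all genes tested did. By family the 39 were 12 of 23 ionotropic glutamate, 11 of 12 mGlu, 12 of 18 GABA-A, 2 of 3 GABA-B and 2 of 7 glycine receptor genes. The exception in the mGlu family was grm6b (adjusted p = 0.316), whose clutch means spanned 0.22 log2 units, while those of its copy grm6a spanned 1.33 (adjusted p = 0.000122). Without the trend and robust options of limma, 21 of 63 receptor genes differed between clutches, where 13.1% of all genes tested did.

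Most of this variation involved low values in clutch 1. Clutch 1 held the lowest value of the 4 clutches in both genotypes for 43 of 63 genes, against 21.4% of all genes tested. These were 12 of 12 mGlu, 16 of 23 ionotropic glutamate, 12 of 18 GABA-A, 2 of 3 GABA-B and 1 of 7 glycine receptor genes. Relative to the mean of the other clutches, clutch 1 differed by a median of -1.04 log2 units for mGlu group I, -0.498 for NMDA, -0.596 for GABA-A alpha, -0.12 for AMPA and 0.065 for glycine alpha genes. The glycine alpha genes were split, from -0.59 for glra1 to 0.43 log2 units for glra4a. Without clutch 1, 1 of 63 receptor genes differed between the remaining clutches, glra4a (limma adjusted p = 0.000764), where 9.98% of all genes did. glra4a was high in clutches 1 and 4 and low in clutch 2 in both genotypes.

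Other neuronal genes were also low in clutch 1. Over 30 pan-neuronal genes the median deviation from each gene's mean of 8 libraries was -0.23, 0.035, 0.013 and 0.12 log2 units in the mutants of clutches 1 to 4, against -0.202, 0.15, 0.062 and 0.092 in their siblings. For all 63 receptor genes it was -0.26, 0.16, 0.027 and 0.13 in mutants and -0.32, 0.13, 0.081 and 0.13 in siblings. The summed level of the pan-neuronal list was 4111, 5078, 4859 and 5312 CPM in mutants, against 3903, 5225, 5047 and 5202 CPM in siblings. No gene of the list had a mean under 1.11 log2 CPM. The median deviation of 14 radial astroglia genes was highest in clutch 1, with 0.21, -0.077, -0.085 and -0.0065 in mutants and 0.15, -0.0091, -0.049 and -0.041 in siblings. Their summed level was not, at 3066, 3094, 2991 and 3015 CPM in mutants, against 2877, 3197, 3175 and 3105 CPM in siblings. slc1a2b, a gene of this list with high CPM, was lowest in clutch 1 in both genotypes. The part of these cell types in the clutch difference was not tested.

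**Figure D4:**
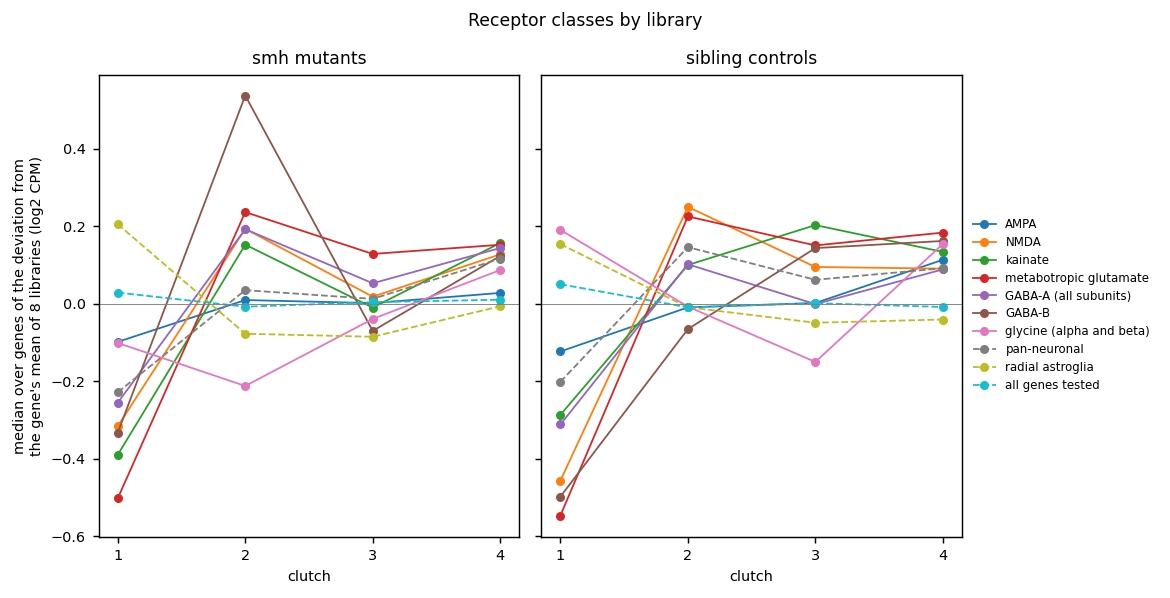
Median deviation of the genes of a class from their own mean over 8 libraries (log2 CPM, vertical axis) in each clutch, for smh mutants (left) and sibling controls (right); dashed lines show comparison lists. In clutch 1 the mGlu genes lay 0.502 below in mutants and 0.55 below in controls, the glycine receptor genes were below in the mutant and above in the control, and radial astroglia genes lay above in both genotypes.

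Genes at higher levels were bounded more tightly. Without the block, 0 of 11 genes with a mean under 2 log2 CPM had an interval inside 0.5 log2 units. At 2 to 4 log2 CPM 11 of 25 genes had, and above 4 log2 CPM 21 of 27. The median half-width in that fit was 0.57, 0.41 and 0.303 log2 units in these groups, and the largest absolute difference 0.23, 0.32 and 0.16. With clutch as a block, the intervals of 11 genes still reached beyond 0.5, among them grin3ba, grin3bb, grm5b, gabra4, gabrb1, gabrg1, gabrg3, gabrr3a, gabbr1a and glra4b, and all 11 had a mean under 3 log2 CPM. Of these 11, grin3ba, gabra4 and gabrg1 lay at 2 to 4 log2 CPM and the rest under 2. All 27 genes above 4 log2 CPM lay inside 0.5 log2 units in the blocked fit.

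**Figure D5:**
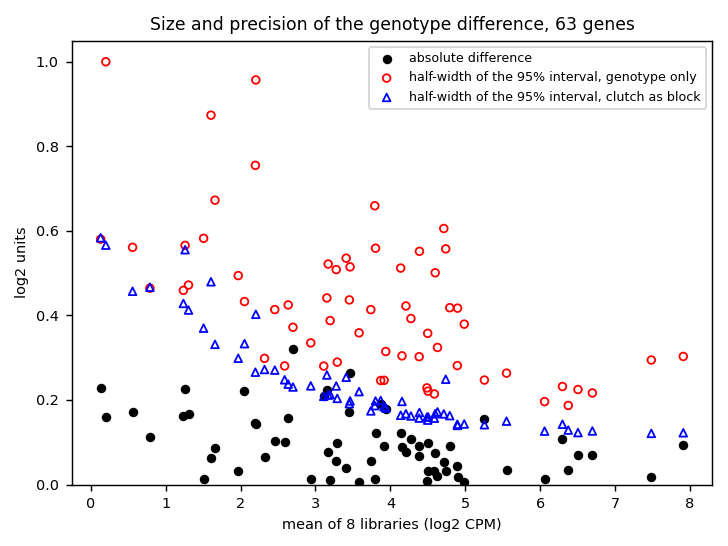
Absolute difference between smh mutants and sibling controls (black) and half-width of its 95% interval without (red) and with (blue) clutch as a block, in log2 units, against the mean level of each of 63 genes in log2 CPM. Half-widths fall with level, to a median of 0.303 without the block above 4 log2 CPM.

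Many receptor genes are kept as 2 copies in zebrafish, and the signs of the copies were compared. Of 17 pairs with both copies among the 63 genes, 5 had the same sign in both copies. The intervals of all 63 genes without the block held 0, so these signs are uncertain and give no rule about pairs. In 3 pairs 1 copy had the higher difference in 4 of 4 clutches: grin1b over grin1a (a gap of 0.076 log2 units), gria3b over gria3a (0.101) and grm2b over grm2a (0.22). Of single genes, 21.9% of all tested shared a direction in 4 of 4 clutches, and no such share was counted for gaps between copies. None of the gaps was tested. The submitters' processing notes name RSEM among the tools. No further detail of how reads shared by near-identical copies were counted is given in the sources used here, so values of single copies carry that uncertainty.

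Genes that supply and clear the transmitters or anchor the receptors were counted by the same tests. Of all genes tested, 3.41% without the block and 13.5% with it had an unadjusted limma p under 0.05. The shares that passed were 0.0744% and 2.34%. Of 23 genes of glutamate synthesis and transport, 0 passed in either limma fit, and 2 genes without the block and 3 with it had an unadjusted p under 0.05. The list had a median of -0.038 log2 units. Its genes with the highest CPM, the glial glutamate transporter slc1a2b and the glutamine synthetase glula, differed by 0.075 and -0.057 log2 units. Of 16 genes of GABA and glycine synthesis and transport, 0 passed in either fit (0 at an unadjusted p under 0.05 in both), with a median of 0.016, and the GABA transporter slc6a1b and glycine transporter slc6a9 differed by 0.13 and 0.041 log2 units. Of 54 auxiliary subunit and scaffold genes, 0 passed, and 5 had an unadjusted p under 0.05 in the blocked fit against 0 in the other. They had a median of -0.016, and shank1 and shisa7b differed by 0.13 and 0.088 log2 units.

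For comparison, the blocked fit made calls among exocrine pancreas and skeletal muscle genes of these libraries. It made 0 among radial astroglia genes and 1 in the list of retinal cells above (samsn1a). The lists were chosen with earlier results of these data known, so their calls are no independent check of the fit. Of all genes tested, 2.34% passed in the blocked limma fit and 0.0744% in the other. An unadjusted limma p under 0.05 was found for 13.5% and 3.41% of all genes in the same order. Of 16 exocrine pancreas genes, 15 fell in that fit (limma), among them the digestive enzyme genes pla2g1b (-0.97 log2 units), cpa1 (-0.77), cpa5 (-0.51) and ela3l (-0.66). In the fit of genotype alone 0 of 16 passed and 0 had an unadjusted p under 0.05, where 16 of 16 had in the blocked fit, and the median was -0.52 log2 units. Of 16 skeletal muscle genes, 2 fell in the blocked fit, acta1b (-0.38 log2 units) and tnni2a.4 (-0.26), and 0 in the other, where 2 had an unadjusted p under 0.05 and 6 in the blocked fit. Of 30 pan-neuronal genes 0 passed in either fit (3 at an unadjusted p under 0.05 in the blocked one, 0 in the other), with 19 of 30 below 0 and a median of -0.035 log2 units. The 2 with the highest CPM were above 0, elavl3 at 0.13 and elavl4 at 0.093 log2 units. Of 14 radial astroglia genes 0 passed in either fit (2 and 0 in the same order), with 10 of 14 above 0 and a median of 0.037 log2 units. Of the 2 with the highest CPM, apoeb was at -0.076 and slc1a2b at 0.075 log2 units.

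RefSeq (GRCz12tu) gives receptor names to 7 more gene IDs of the table, which the table lists under other symbols and which the symbol rule leaves out. These were named after their values were seen. Their differences were -0.199 (grik6), -0.105 (grin2ca), -0.052 (grin2db), 0.029 (grm7), 0.086 (grik3), 0.091 (grin2ba) and 0.27 log2 units (gabra2b). None of these 7 passed in either fit, with a smallest limma adjusted p of 0.199, for grik6 with the block. grik6 was lower in mutants in 4 of 4 clutches (21.9% of all genes tested shared a direction, up or down). All its mutant values lay below all its control values (2.92% of all genes were apart in this way, in either direction). Of the 7, 2 had an unadjusted limma p under 0.05 with the block (13.5% of all genes) and 0 without (3.41%). With them the median over 70 genes was 0.0088 log2 units.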

How the data were processed

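RNA of whole larvae was sequenced by BGI on DNBSEQ and reads were filtered with SOAPnuke 1.5.2, per the labels' protocols. Per the submitters' processing notes, the genome build was GRCz11 and the tools included limma, RSEM, Bowtie2 and HISAT2 2.0.4. The table of values per library was deposited by the authors with no stated unit; near-identical quantiles and values below 0 show log2 values, taken here as log2 CPM after quantile normalization. The authors' deposited comparison gives log2 fold changes, p-values and scores; its scores were not used. No counts are in these tables, so depth and the precision it gives are unknown.

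Genes reaching 0 log2 CPM in at least 4 of 8 libraries (20154 of 20409) were tested with limma 3.58.1 in R 4.3.3, in a model of genotype with mean-variance trend and robust moderation, and Benjamini-Hochberg adjustment over all genes at 0.05. No pseudocount was added. The alternative with clutch as a block also gave the F test between clutches. Clutch numbers pair the libraries, per the labels; deviations of clutch mates from their group means correlated across genes by 0.72, 0.50, 0.50 and 0.30 in clutches 1 to 4. The blocked value stands beside a result where it changed a count by over 1.5 times. The procedure was tested on simulated data.

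Receptor genes were grouped by symbol. Shown in every library were, for each class, the gene with the highest mean and the one with the largest difference, and any gene with an unadjusted p under 0.05 in either fit; of other lists, up to 4 passing genes or the 2 with the highest mean. A class is described by its median over all its genes. Some receptor genes and their own values are not reported here. The members, lists and rules were chosen with earlier results of these data known. Chromosomes were looked up by gene ID in RefSeq (GRCz12tu); no coordinates are given because the builds differ. Each clutch gave 1 library of 30 pooled larvae per genotype, and p-values without the block measure the spread between these libraries. Those of the fit with clutch as a term measure the spread left once clutch is taken out.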

Additional observations from a re-analysis of the deposited data

Results flagged for a closer look

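A library stood far from the other 3 of its genotype, by Dixon's test of the gap to the nearest value, in 21 of 142 groups of 4 values. The nominal rate of the test is about 1 in 20 independent groups. These groups share libraries, and class sums repeat their own genes, so they are not independent. The share over all genes was not counted, so the count is no trait of receptor genes. Of the 21, 19 concern clutch 1. The mutant of clutch 1 was low at 3.74 log2 CPM for gabra6a (others 4.27 to 4.36), 3.88 log2 CPM for gabrd (others 4.54 to 4.65), 4.63 log2 CPM for grm2b (others 4.98 to 5.03), 4.396 log2 CPM for grm4 (others 5.05 to 5.097) and 2.701 log2 CPM for grm8b (others 3.34 to 3.400). The control of clutch 1 was low at 0.82 log2 CPM for gabra4 (others 2.44 to 2.67), 3.88 log2 CPM for glra1 (others 4.45 to 4.51), 7.496 log2 CPM for grin1b (others 7.96 to 8.02) and 4.16 log2 CPM for grin2bb (others 4.895 to 4.98). The same control was low at 2.97 log2 CPM for grm2a (others 3.69 to 3.75), 2.94 log2 CPM for grm5a (others 3.96 to 4.16) and 3.54 log2 CPM for grm8a (others 4.37 to 4.45), and high at 6.52 log2 CPM for glrbb (others 6.29 to 6.302).

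Summed levels of clutch 1 also stood apart. The mutant of clutch 1 had 62.9 CPM for mGlu group III genes (others 90.5 to 94.5). The control of clutch 1 had 400.3 CPM for NMDA genes (others 573 to 593), 49.8 CPM for kainate genes (others 72.4 to 75.8) and 26 CPM for mGlu group I genes (others 45.2 to 48.1). It also had 63 CPM for mGlu group III genes (others 90.9 to 95.6) and 18 CPM for GABA-A gamma genes (others 22.1 to 22.8).

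Outside clutch 1, the mutant of clutch 2 was high at 2.12 log2 CPM for gabra3 (others 1.25 to 1.35) and low at 6.003 log2 CPM for glrbb (others 6.301 to 6.36).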

How the results depend on the processing

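In each alternative run, 0 of the receptor genes tested passed between genotypes. With the replicate block (clutch), 472 genes in place of 15 were called and 52 receptor genes in place of 32 lay inside 0.5 log2 units. The block without trend and robust moderation, added after the data were seen, gave 50 and 52. A filter on a mean of 5 CPM, which left 50 receptor genes, called 7 genes. Without trend and robust moderation, the genes called between clutches were 2638 in place of 7788, with 21 receptor genes in place of 39. Leaving out 1 library gave 5 to 15 genes called between genotypes, the lowest without the control of clutch 2. Between clutches it gave 4619 to 7226 genes, the lowest without the control of clutch 1. Leaving out clutches 1, 2, 3 or 4 gave 25, 1, 1 and 0 genes called, or 429, 232, 429 and 178 with the block, and the receptor genes inside 0.5 log2 units then ranged from 19 (without clutch 3 or 4) to 51, with 51, 49, 49 and 50 under the block. Between clutches, 2010 genes and 1 receptor gene were called without clutch 1, and at most 7725 and 42 under the other exclusions. Medians over these exclusions ran from -0.103 to 0.11 (ionotropic glutamate), -0.17 to 0.18 (mGlu), -0.11 to 0.11 (GABA-A), -0.16 to -0.051 (glycine) and -0.11 to 0.12 log2 units (all 63). By class they ran from -0.039 to 0.0301 (AMPA), -0.11 to 0.15 (NMDA), -0.15 to 0.18 (kainate), -0.31 to 0.21 (mGlu group I), -0.17 to 0.14 (mGlu group II), -0.14 to 0.18 (mGlu group III), -0.23 to 0.12 (GABA-A alpha), -0.083 to 0.039 (GABA-A beta), 0.12 to 0.297 (GABA-A gamma), -0.18 to 0.25 (GABA-A delta), -0.22 to -0.0028 (GABA-A rho), -0.15 to 0.23 (GABA-B), -0.12 to 0.0401 (glycine alpha) and -0.202 to -0.101 (glycine beta). Both extremes of the all 63, ionotropic glutamate, mGlu and GABA-A medians came without 1 library of clutch 1, which leaves that clutch in 1 genotype. Without both libraries of clutch 1 the median of all 63 was -0.0084 and that of mGlu genes -0.033, and without clutch 4 that of mGlu genes was 0.055. Between 6 and 22 receptor genes changed sign when 1 library was left out, none of them called. The other settings (no filter, 2 rescalings, RefSeq-named genes added) left every class median within its spread between clutches. Without counts, what depth limits cannot be stated.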
